A study of Equus caballus with 12 samples.

Results

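The genes described here were 40 DNA replication and repair genes, out of 11425 genes measured in pools of in vitro matured horse oocytes. They were chosen by name: the gene names that the study's supplementary lists pair with an identifier had to start with RAD, RFC, MCM, MSH, MLH, XRCC, ERCC, FANC, BRCA, BARD, ORC, POLA, POLD, POLE, LIG, PARP, PRIM or TOP and go on with a number, or with RPA and a number, or had to be PCNA. Of the 11425 genes, 2627 could be given a name in this way, so replication and repair genes without a name were not analysed here. The rule also brought in RAD21, a cohesin subunit, and PARP12, an interferon-induced member of the PARP family. It left out 5 names that start alike but have no number in that place (FANCL, PRIMPOL, RPAIN, RPAP3 and TOPORS). No sequence is printed, because the values are counts per gene.

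All oocytes came from the ovaries of slaughtered mares, were matured in vitro and were denuded before RNA was extracted, and a sample was a pool of 23 oocytes on average. The control group was fresh (FR, n = 5), with maturation and no vitrification. VMAT oocytes (n = 3) were denuded after maturation, then vitrified and warmed, and cultured briefly before sampling. VIM oocytes (n = 4, titled VGV by the submitters) were vitrified and warmed at the immature germinal vesicle stage, still within their corona radiata, and matured afterwards. Oocytes were stored only if they had a polar body and an unbroken membrane. The study reported a lower maturation rate in VIM than in FR and VMAT, and higher survival after warming in VIM than in VMAT. The share of oocytes finally stored was lower in VIM than in FR. The vitrified groups thus differed in meiotic stage, cumulus cover at vitrification, time after warming and rates of survival and maturation, which cannot be told apart. The labels do not say which mares went into which pool, so the p-values below measure the spread between these pools. The RNA of a pool does not separate fewer oocytes that hold a transcript from less transcript per oocyte.

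The growing oocyte stores mRNA and then becomes nearly silent in transcription, so the matured egg and the first embryonic divisions draw on what was stored. Among these stores are the proteins that license replication origins, copy DNA at the fork and mend its errors and breaks, including breaks brought in by the sperm. Homologous recombination, in which a broken end copies an intact sister or homologous strand, is also the process that makes crossovers in the fetal ovary.

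The libraries held between 1636620 and 12166950 reads on genes, both extremes in VMAT (replicates 1 and 2), against 2123138 to 3930366 in VIM and 2740837 to 4715119 in FR. Values are normalised read counts, the reads divided by a size factor for each sample, and 3 reads corresponded to between 0.376 and 9.34 normalised counts. The size factors were not in proportion to the reads. They were 0.321 in VMAT replicate 1 and 7.98 in VMAT replicate 2, so an equal share of the reads gave a higher normalised count in replicate 1. This enters every VMAT range and the counts of high members below. Of 14 oocyte markers 9 could be matched. GDF9, ZP4, KPNA7 and BTG4 had a normalised count of at least 30 in 12 of 12 samples, BMP15 and WEE2 in 10, ZP2 in 9, and FIGLA and OOSP2 in 7. The 9 together summed to 7039 to 11265 in VIM, 7987 to 16283 in VMAT and 8227 to 14323 in FR. Of 12 cumulus and corona markers only HAS2 could be matched, at 641 to 2144 in VIM, 254 to 1755 in VMAT and 462 to 1239 in FR, and its part in the results was not tested. None of the 3 blood cell markers could be matched.

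Most members were present at a high level in some pools and nearly absent from others of the same group. With high defined as a normalised count of at least 30, 11 members were high in all 12 samples, 29 in some of them, and 0 members were low throughout. Among the 11 were BRCA2, MCM10, MCM2, MSH3, PARP12, PCNA, RFC3, TOP1, XRCC1 and XRCC2. The 11 made up 27.5% of the members, beside 20.6% of the 3811 genes with a mean in the same range. The median member was high in 9 of 12 samples. In VIM 16 members were high in all 4 samples, in VMAT 14 in all 3 and in FR 20 in all 5. RAD54B was the member that was high in 0 of 4 VIM samples, and RAD52 the one high in 0 of 3 VMAT samples.

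**Figure D1:**
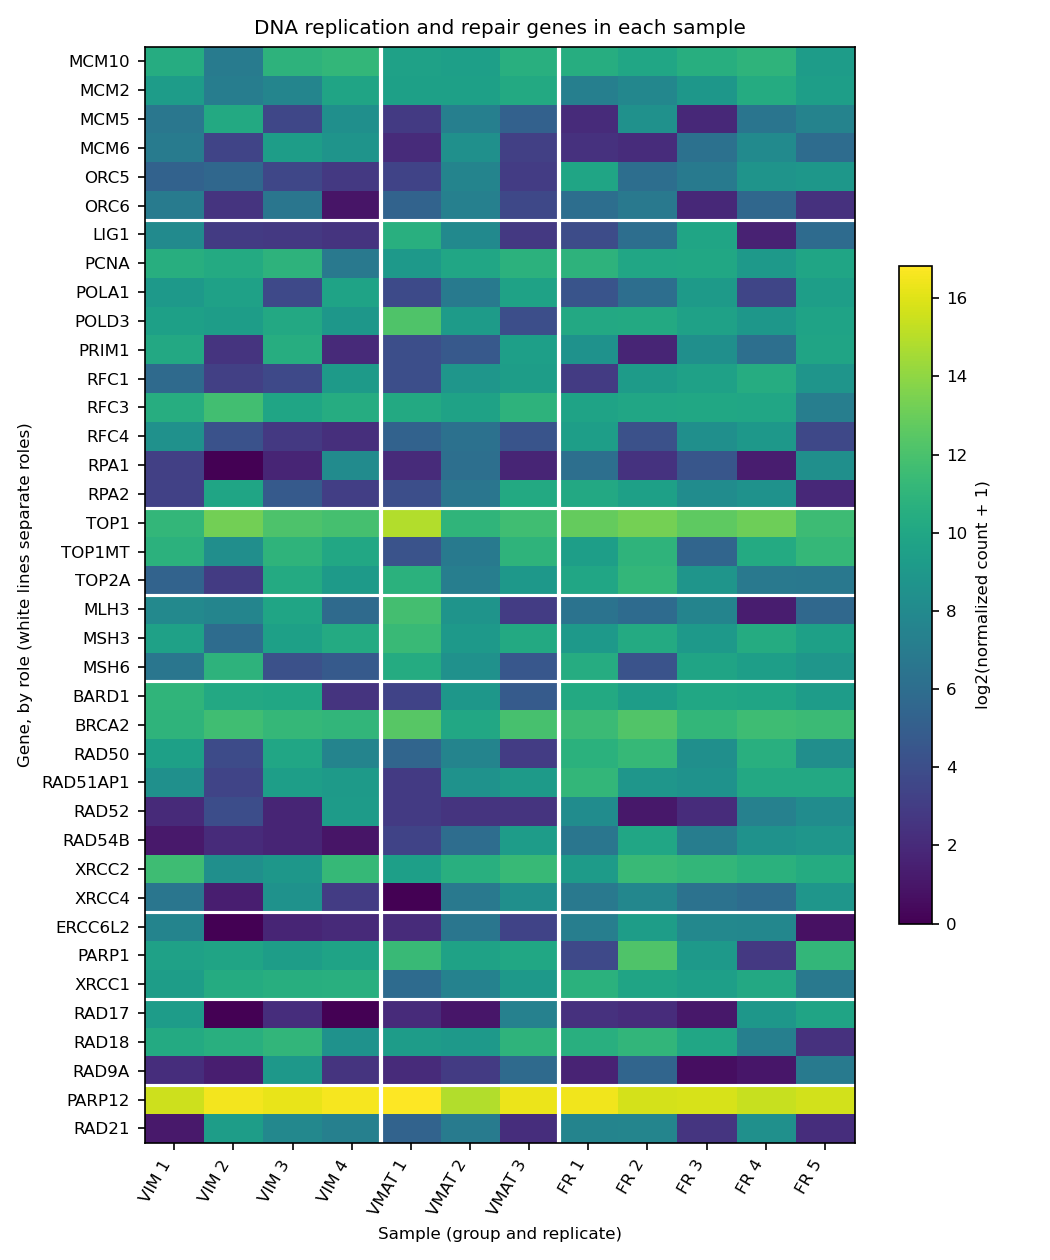
Heat map of log2(normalised count + 1) for 38 of the 40 members (vertical axis, by role) in the 12 samples (horizontal axis, by group). Dark cells are found in every group, and RAD54B is dark in all 4 VIM samples.

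The spread between pools of one group was wide, for the members as for other genes. The standard deviation of log2(normalised count + 1) within a group, pooled over the groups, had a median of 2.51 over members (range 0.61 to 4.08) and 2.63 over the 3811 genes of the same range. In VIM and in VMAT 26 of 40 members differed by at least 10-fold between the highest and the lowest pool after 1 was added to each value (65.0%, beside 69.3% and 65.0% of the genes in range), and in FR 25 of 40 did (62.5%, beside 72.1%). Among the steadiest members were PARP12, with 3.91-fold between its highest and lowest sample over all 12, and BRCA2, with 5.09-fold. The highest and lowest PARP12 values were in VMAT replicates 1 and 2, where it took 2.27% and 1.94% of the reads. MLH3 had the widest range, 1382-fold.

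The number of members at a high level in a library was 34, 24, 26 and 27 in VIM replicates 1 to 4, 23, 36 and 25 in VMAT replicates 1 to 3, and 31, 32, 32, 34 and 34 in FR replicates 1 to 5. The deepest library, VMAT replicate 2, had the most and the shallowest, VMAT replicate 1, the fewest. When every library was thinned to 1636620 reads, a choice made after seeing the data, the counts were 24 to 34 in VIM, 23 to 37 in VMAT and 31 to 34 in FR. Over all genes the share at a high level was 24.3% to 31.5% in VIM, 22.03% to 42.9% in VMAT and 25.7% to 32.6% in FR.

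**Figure D2:**
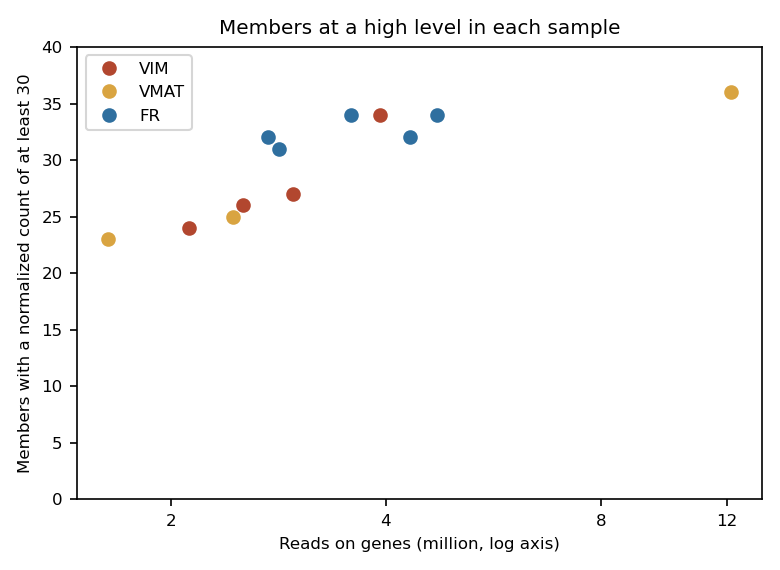
Number of members with a normalised count of at least 30 (vertical axis, of 40) against the reads on genes in each library (horizontal log axis). FR libraries lie between 31 and 34, while VIM and VMAT libraries range from 23 to 36.

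Of the roles, the 8 members of double-strand break repair had the lowest median log2 fold change against FR in both vitrified groups. These genes were grouped by role after their values had been seen, so the group is given by its counts only. The log2 fold change was below 0 for 8 of 8 genes in VIM vs. FR (median -1.74) and again for 8 of 8 when VMAT was set against FR (median -2.42), where 53.1% and 49.7% of all genes tested, and 57.9% and 58.7% of the genes with a name, were below 0. In VIM vs. VMAT 4 of 8 were below 0 (median 0.30). Other genes of such repair, looked up from a list given below, did not all go the way of these members. PALB2 and RMI1 were below 0 in both comparisons with FR, and BRIP1 in neither. EXO1, MND1, RBBP8, RIF1 and RNF168 were below 0 only in VIM vs. FR, and ATM, BLM and UIMC1 only for VMAT vs. FR. VIM vs. FR and VMAT vs. FR used the same 5 FR samples. With edgeR on whole reads 7 of 8 were below 0 in VIM vs. FR and 8 of 8 with VMAT against FR, and with DESeq2 6 of 8 and 7 of 8. The exceptions were BARD1 under both tools and RAD52 under DESeq2 in VIM vs. FR, and BRCA2 under DESeq2 for VMAT vs. FR. Of all genes, 53.4% and 54.8% were below 0 with edgeR in the same 2 comparisons, and 50.9% and 53.1% with DESeq2. When 1 sample was left out of limma, 7 or 8 of 8 were below 0 in VIM vs. FR and 6 to 8 of 8 for VMAT vs. FR. The same omissions, added after seeing the data, gave 5 to 7 of 8 in VIM vs. FR under both edgeR and DESeq2, and with VMAT against FR 6 to 8 under edgeR and 6 or 7 under DESeq2. Without 1 sample, the share of all genes below 0 in VIM vs. FR was 51.3% to 54.9% under limma. It was 50.6% to 57.4% under edgeR and 48.6% to 54.5% under DESeq2. For VMAT vs. FR this share was 47.5% to 58.3%, 52.0% to 63.9% and 50.3% to 59.8% in the same order of tools.

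RAD54B (ENSECAG00000021949), a DNA translocase of homologous recombination, was nearly absent from VIM. Its normalised counts were 1.23, 3.26, 2.41 and 0.978 in VIM, 9.34, 63.5 and 640.2 in VMAT and 97.0, 1005, 139, 383 and 453 in FR. All 4 VIM samples lay below all VMAT and all FR samples, and VMAT overlapped FR. The lowest VMAT value, 9.34 in replicate 1, was 3 reads in the shallowest library, at the floor of 3 reads, and each VIM library held 1 or 2 reads. In reads, the 4 VIM libraries held 7 RAD54B reads together and the 5 FR libraries 2611. Scaled by the size factors, this was a ratio of 219 (95% exact interval 106 to 546, for counting error only), and the ratio of VMAT to VIM was 67.3 (32.5 to 168). When 1 library was left out, an alternative chosen after seeing the data, the ratio of FR to VIM lay between 166 and 267. The ratio of VMAT to VIM was 273 without VMAT replicate 2 and 35.9 without VMAT replicate 3, and 56.7 to 80.1 without any other library. In VIM vs. FR, the log2 fold change was -6.73 (SE 1.87), with an unadjusted limma p of 0.00146 that did not pass adjustment over all 7351 genes (adjusted p = 0.902). DESeq2 gave -7.78 with an adjusted p of 3.27e-07, and edgeR an adjusted p of 0.281. In VIM vs. VMAT, the log2 fold change was -4.74 (SE 2.87, limma adjusted p = 0.967). DESeq2 called RAD54B lower there, with an adjusted p of 0.00806 that became 0.159 without VMAT replicate 3, the VMAT sample with the highest count. VMAT vs. FR gave -1.99 (SE 1.57, limma adjusted p = 0.95).

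The genes whose log2 values followed RAD54B most closely over the 12 samples, of 9027 searched, were ADAM10 (Pearson r = 0.909), TM9SF4 (0.864) and CEP20 (0.860). The 12 samples share their groups, so these values describe a pattern and carry no test. ADAM10 ranged from 1.84 to 17.9 in VIM, 9.34 to 562 in VMAT and 36.7 to 2586 in FR.

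RAD50 (ENSECAG00000010922), the ATPase of the complex that holds broken ends together, was lower in VMAT than in FR. Its normalised counts were 43.6, 195 and 7.07 in VMAT and 1727, 2464, 336, 1545 and 316 in FR, so that no VMAT sample reached the lowest FR sample. The VIM values, 742, 13.04, 1005 and 195, overlapped both groups. VMAT vs. FR had a log2 fold change of -4.50 (SE 1.37, limma adjusted p = 0.95). DESeq2 gave an adjusted p of 0.0608, or 0.00618 without VMAT replicate 2. In VIM vs. FR it was -2.13 (SE 1.15, limma adjusted p = 0.902), and for VIM vs. VMAT 2.37 (SE 2.03).

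BARD1 (ENSECAG00000002113), the partner of BRCA1 in a ubiquitin ligase that promotes recombination, was also lower in VMAT than in FR. The counts were 9.34, 486 and 27.1 in VMAT and 1196, 669, 1045, 962 and 629 in FR, again without overlap. In VIM 3 samples lay at 1039 or above and replicate 4 at 4.89. For VMAT vs. FR, the log2 fold change of BARD1 was -4.07 (SE 1.35, limma adjusted p = 0.95). The DESeq2 adjusted p was 0.45, and 0.00112 without VMAT replicate 2. VIM vs. FR gave -1.34 (SE 1.24), a direction that turned to 0.62 without VIM replicate 4 and to 0.15 and 0.23 under edgeR and DESeq2. VIM vs. VMAT gave 2.73 (SE 1.88, limma adjusted p = 0.967).

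RAD51AP1 (ENSECAG00000010367), which acts where a broken end invades the intact strand, had the highest values in FR. The counts were 2234, 464, 385, 1117 and 1146 in FR, 343, 9.78, 700.1 and 583 in VIM and 6.22, 374 and 564 in VMAT. Single low pools, VIM replicate 2 and VMAT replicate 1, lay far under the others, and each vitrified group overlapped FR. Log2 fold changes were -2.15 in VIM vs. FR (SE 1.14, limma adjusted p = 0.902) and -2.93 for VMAT vs. FR (SE 1.321, limma adjusted p = 0.95). Neither passed adjustment.

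The other members of this group did not reach an unadjusted limma p of 0.05 in any comparison. BRCA2, without which homologous recombination fails, was among the steadiest members, with means of 2442 ± 581 in VIM, 3490.1 ± 2245 in VMAT and 3168 ± 956 in FR (mean ± SD). XRCC2, which also acts in homologous recombination, was high in all 12 samples (326 to 3085). RAD52, a strand-annealing protein, was 6.22, 4.88 and 4.72 in VMAT, while VIM and FR each held high and low pools (2.41 to 592 and 1.14 to 293). Its DESeq2 adjusted p for VMAT vs. FR was 0.0542. XRCC4, which works with DNA ligase IV in end joining, was high in 5 of 5 FR samples, 2 of 4 VIM samples and 2 of 3 VMAT samples.

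**Figure D3:**
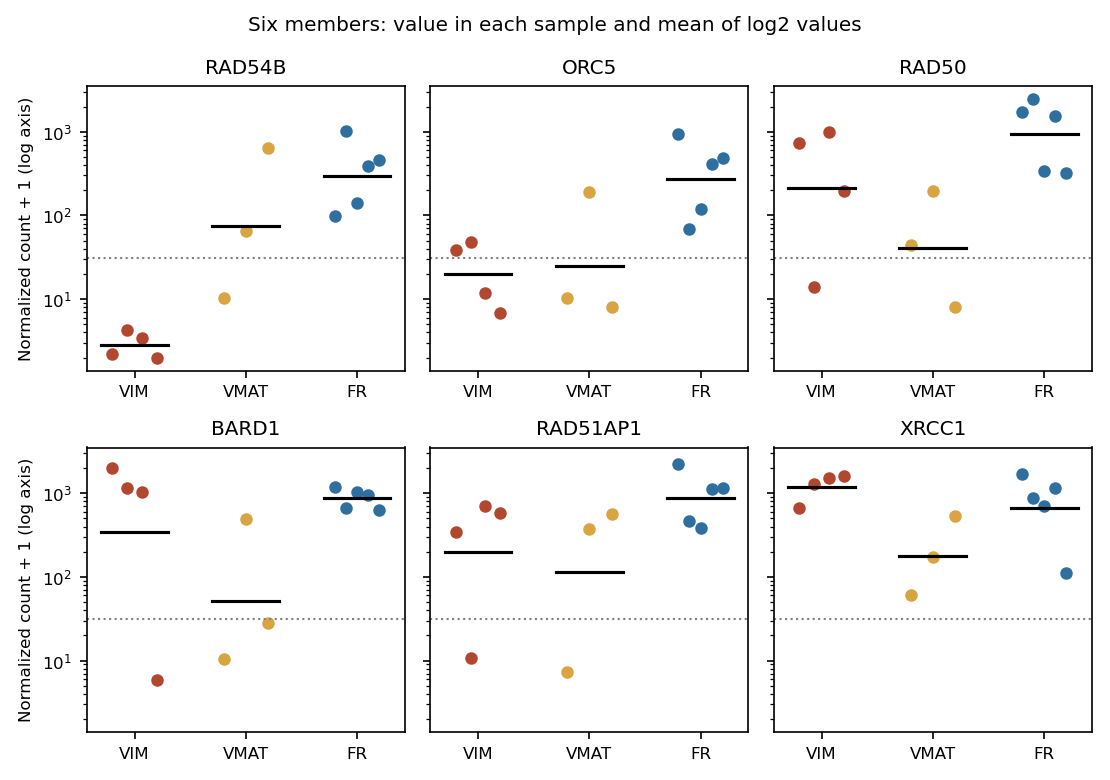
Normalised count + 1 (vertical log axis) of RAD54B, ORC5, RAD50, BARD1, RAD51AP1 and XRCC1 in each sample (points) by group, with the mean of the log2 values (bars) and a dotted line at a normalised count of 30. RAD54B and ORC5 lie lower in all 4 VIM samples than in all 5 FR samples, and RAD50 and BARD1 lie lower in all 3 VMAT samples than in all 5 FR samples.

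Of the 6 members of origin licensing and the replicative helicase, ORC5 (ENSECAG00000007885), a subunit of the origin recognition complex, differed most from FR. Its counts were 38.1, 47.3, 10.8 and 5.87 in VIM and 951, 67.5, 119, 409.7 and 487 in FR, with no overlap. In VMAT they were 9.34, 188 and 7.07, so that only replicate 2 reached the FR range. The log2 fold change in VIM vs. FR was -3.80 (SE 1.58, limma adjusted p = 0.902). DESeq2 called ORC5 lower (adjusted p = 0.00995), but not without FR replicate 1, the sample with the highest count (adjusted p = 0.0875). In VMAT vs. FR it was -3.45 (SE 1.73, limma adjusted p = 0.95).

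ORC6, of the same complex, was low in pools of every group (0.978 to 125 in VIM, 11.8 to 157 in VMAT and 2.80 to 109 in FR). The 2 ORC genes were high together in 5 of 12 samples, and both were low in 2. MCM2, MCM5 and MCM6 code for subunits of the ring-shaped helicase that unwinds DNA. They were all high in 5 samples, and only some of them in the other 7. MCM2 was at 139 or more in every sample, whereas MCM5 ranged over 2.80 to 1162 and MCM6 over 3.11 to 648. MCM10, which helps to activate the helicase, was high throughout, with means of 1389 ± 915 in VIM, 1031 ± 491 in VMAT and 1309 ± 506 in FR. No log2 fold change of ORC6 or of these 4 genes had an unadjusted limma p under 0.05.

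The 10 genes of DNA synthesis held steady and unsteady members side by side. PCNA, the sliding clamp that tethers polymerases to DNA, was 1178 ± 765 in VIM, 1117 ± 654 in VMAT and 1084 ± 488 in FR. RFC3, a subunit of the loader that places this clamp, was 1783 ± 1089, 1289 ± 545 and 809 ± 375 in the same order. Both were high in all 12 samples, and all 3 of the clamp loader genes RFC1, RFC3 and RFC4 were high together in only 4. POLD3, a subunit of DNA polymerase delta, was high in every sample but VMAT replicate 3, where its count was 15.3.

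POLA1 and PRIM1, which code for the polymerase and primase subunits that start new strands, were high together in 4 samples and both low in 1. RPA1 and RPA2, which coat single-stranded DNA as subunits of 1 complex, were high together in 2 samples and both low in 3. RPA1 was 7.98, 0, 2.41 and 276 in VIM, 3.11, 70.6 and 2.36 in VMAT and 70.1, 4.58, 21.3, 1.51 and 326 in FR. In each group 1 or 2 pools held nearly all of it.

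LIG1 (ENSECAG00000015424), the ligase that joins Okazaki fragments, was 265, 6.52, 6.03 and 4.89 in VIM, 1587, 254 and 5.90 in VMAT and 14.02, 67.5, 956, 2.02 and 57.3 in FR. Each group held both low and high pools, and all 3 groups overlapped. VIM and VMAT differed by -3.05 on the log2 scale (SE 2.50, limma adjusted p = 0.967). Over the 10 genes, 8 were below 0 in VIM vs. FR (median -0.97), 7 for VMAT vs. FR (median -0.75) and 6 for VIM vs. VMAT (median -0.19). Of all genes tested, 53.1%, 49.7% and 52.2% were below 0 in the same order. None of the 10 genes of DNA synthesis had an unadjusted limma p under 0.05 in any comparison.

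Among the topoisomerases, which relieve the twisting strain of DNA, TOP1 was high in all 12 samples (2083 to 30487). Its highest value was in VMAT replicate 1, the library with the smallest size factor. TOP1MT (ENSECAG00000013129), the mitochondrial form, was 1794, 318, 1991 and 1066 in VIM, 18.7, 122 and 1999.7 in VMAT and 674, 1982, 43.7, 1257 and 2366 in FR. VMAT replicates 1 and 2 lay under all VIM samples, and VMAT replicate 3 above them. Between VIM and VMAT the log2 fold change was 2.63 (SE 1.37, limma adjusted p = 0.967). TOP2A, which also untangles chromosomes before they separate, ranged over 6.52 to 1245 in VIM, 146 to 1736 in VMAT and 105 to 2217 in FR.

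None of the mismatch repair genes MSH3, MSH6 and MLH3 had an unadjusted limma p under 0.05 in any comparison. MSH6 takes part in reading single mismatches and MSH3 in reading larger loops. MSH3 was high in all 12 samples (61.9 to 2654). MSH6 was high in 8 of 12 and ranged over 16.9 to 1857 in VIM, 22.4 to 1276 in VMAT and 18.3 to 1334 in FR, so that each group held high and low pools. MLH3, a mismatch repair protein that also acts in meiotic crossing over, was 245, 197, 951 and 55.7 in VIM, 3473, 422 and 7.07 in VMAT and 83.0, 58.3, 190.3, 1.51 and 50.1 in FR. Its log2 fold changes, 2.45 (SE 1.66) in VIM vs. FR and 2.46 (SE 2.02) for VMAT vs. FR, were the highest of these genes in both comparisons.

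Of the excision and single-strand break repair genes, XRCC1 (ENSECAG00000014127), the scaffold of single-strand break repair, was higher in VIM than in VMAT. Its counts were 662, 1293, 1511 and 1586 in VIM and 59.1, 173 and 527 in VMAT, with no overlap, while FR (1689, 884, 706, 1159 and 110.2) overlapped both. Its log2 fold change was 2.76 (SE 1.301, limma adjusted p = 0.967), and the DESeq2 adjusted p was 0.109.

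PARP1 (ENSECAG00000019207), a sensor of broken strands, was steady in VIM (802, 921, 662 and 847) and was 2735, 837 and 1053 in VMAT. In FR it was 11.9, 4646, 525, 6.05 and 2209, so that 2 FR pools were nearly without it. The log2 fold change for VMAT vs. FR, 2.62 (SE 1.55, limma adjusted p = 0.95), was -0.20 under edgeR. ERCC6L2, a helicase-like protein, was high in 4 of 5 FR samples, 1 of 4 VIM samples and 1 of 3 VMAT samples, with a log2 fold change of -3.75 (SE 2.27, limma adjusted p = 0.902) in VIM vs. FR.

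The checkpoint genes RAD17 and RAD9A, the loader and a subunit of the clamp that signals damage to ATR, were each high in 4 of 12 samples. RAD17 was 623, 0, 3.62 and 0 in VIM, 3.11, 1.002 and 164 in VMAT and 4.31, 3.43, 1.12, 468 and 899 in FR. RAD9A ranged over 1.63 to 509.7, 3.11 to 54.2 and 0.560 to 117 in the same order. High pools of both were found in every group. RAD18, the ubiquitin ligase that marks PCNA at stalled forks, was high in 11 of 12 samples and was at 4.30 in FR replicate 5.

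PARP12 (ENSECAG00000022601), brought in by its name, took between 1.76% and 3.33% of the reads of each library. It was the gene with the most reads in 8 of 12 libraries and ranked second in the other 4. Its counts were 48194, 93527, 80237 and 96531 in VIM, 115589, 29533 and 83905 in VMAT and 89513, 55219, 56844, 44386 and 51157 in FR. The groups overlapped, and the log2 fold change in VIM vs. FR was 0.41 (SE 0.18, limma adjusted p = 0.902, DESeq2 adjusted p = 0.509). All 40 members together took 2.98% to 4.21% of the reads, and the 39 others without PARP12 0.883% to 1.45%. RAD21, which holds sister chromatids together, ranged over 1.23 to 644 in VIM, 3.54 to 124 in VMAT and 3.58 to 352 in FR.

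The comparison VIM vs. FR asked how vitrification before maturation relates to the stored transcripts. All 40 members were tested one by one. Log2 fold changes were below 0 for 26 members and above 0 for 14, beside 53.1% below 0 among all 7351 genes tested and 57.9% among the 2627 genes with a name, and their median was -0.48, beside -0.12 for all genes. On whole reads 23 members were below 0 with edgeR, beside 53.4% of all genes, and 21 of 40 with DESeq2, beside 50.9%. No member was DE by limma at an adjusted p up to 0.05 with a log2 fold change of 1 or more in either direction (0.0% of all genes). At an unadjusted p under 0.05, RAD54B and ORC5 were lower, where 1.66% of all genes were, and PARP12 was higher, where 2.12% were. All VIM samples lay below all FR samples for 2 members, RAD54B and ORC5 (0.639% of all genes), and above them for 0 (0.952%). Among the 2627 genes with a name, 3.20% were lower and 1.87% higher at that p, and 0.914% lay below without overlap. DESeq2 on whole reads called the same 2 members lower (4.56% of all genes) and 0 higher (2.39%), and edgeR called none (0.0%). Over all genes this DESeq2 fit called 335 lower and 176 higher. The study reported far fewer DE genes in each comparison with DESeq2 at the same thresholds, and the cause of the difference was not tested.

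VMAT vs. FR asked the same for vitrification after maturation, against the same FR samples. Log2 fold changes were below 0 for 26 members and above 0 for 14, with 49.7% below 0 among 8305 genes and 58.7% among those with a name, and the median was -0.38, beside 0.01 for all genes. With edgeR 26 members were below 0, beside 54.8% of all genes, and with DESeq2 23, beside 53.1%. Limma called no member (0.0% of all genes). RAD50, BARD1 and RAD51AP1 were lower at an unadjusted p under 0.05 (1.22% of all genes) and no member was higher (2.41%). Of these, RAD50 and BARD1 had all VMAT samples below all FR samples (1.23% of all genes), and 0 members had them above (1.96%). Among the genes with a name, 3.54% were lower and 0.914% higher at that p, and 2.36% lay below without overlap. DESeq2 called no member lower (2.12% of all genes) or higher (2.16%), and neither did edgeR (0.012% of all genes higher).

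The names themselves lean to genes that were lower than in FR. The readable stretch of the first supplementary list was ordered by the study's fold changes and left out the genes with the highest values in vitrified relative to fresh oocytes, and all 2627 named genes had medians of -0.24 in VIM vs. FR and -0.28 for VMAT vs. FR. The second list had no such order, and the genes it names had medians of 0.02 and -0.05, with 49.0% and 51.6% below 0. It holds the study's gene set results for the same comparisons, so it is not independent of these data. The 24 members named in that list had medians of -0.32 and -0.27, with 15 of 24 below 0 in each comparison. RAD54B and BARD1 were named only in the first list, ORC5, RAD50 and RAD51AP1 in both.

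VIM vs. VMAT set the vitrified groups against each other. Here 22 members were below 0 and 18 above, beside 52.2% below 0 among 7627 genes, and the median of -0.06 lay near that of all genes (-0.08). With edgeR 18 were below 0, beside 48.9% of all genes, and with DESeq2 17, beside 48.6%. Limma called no member (0.0%). XRCC1 alone was higher in VIM at an unadjusted p under 0.05 (0.97% of all genes), and no member was lower (2.01%). All VIM samples lay below all VMAT samples for RAD54B (2.78% of all genes) and above them for XRCC1 (1.72%). Among the genes with a name, 2.28% were higher at that p, and 1.94% lay below and 2.89% above without overlap. DESeq2 called RAD54B lower (2.19% of all genes) and no member higher (1.52%), and edgeR called none (0.0131% of all genes lower).

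**Figure D4:**
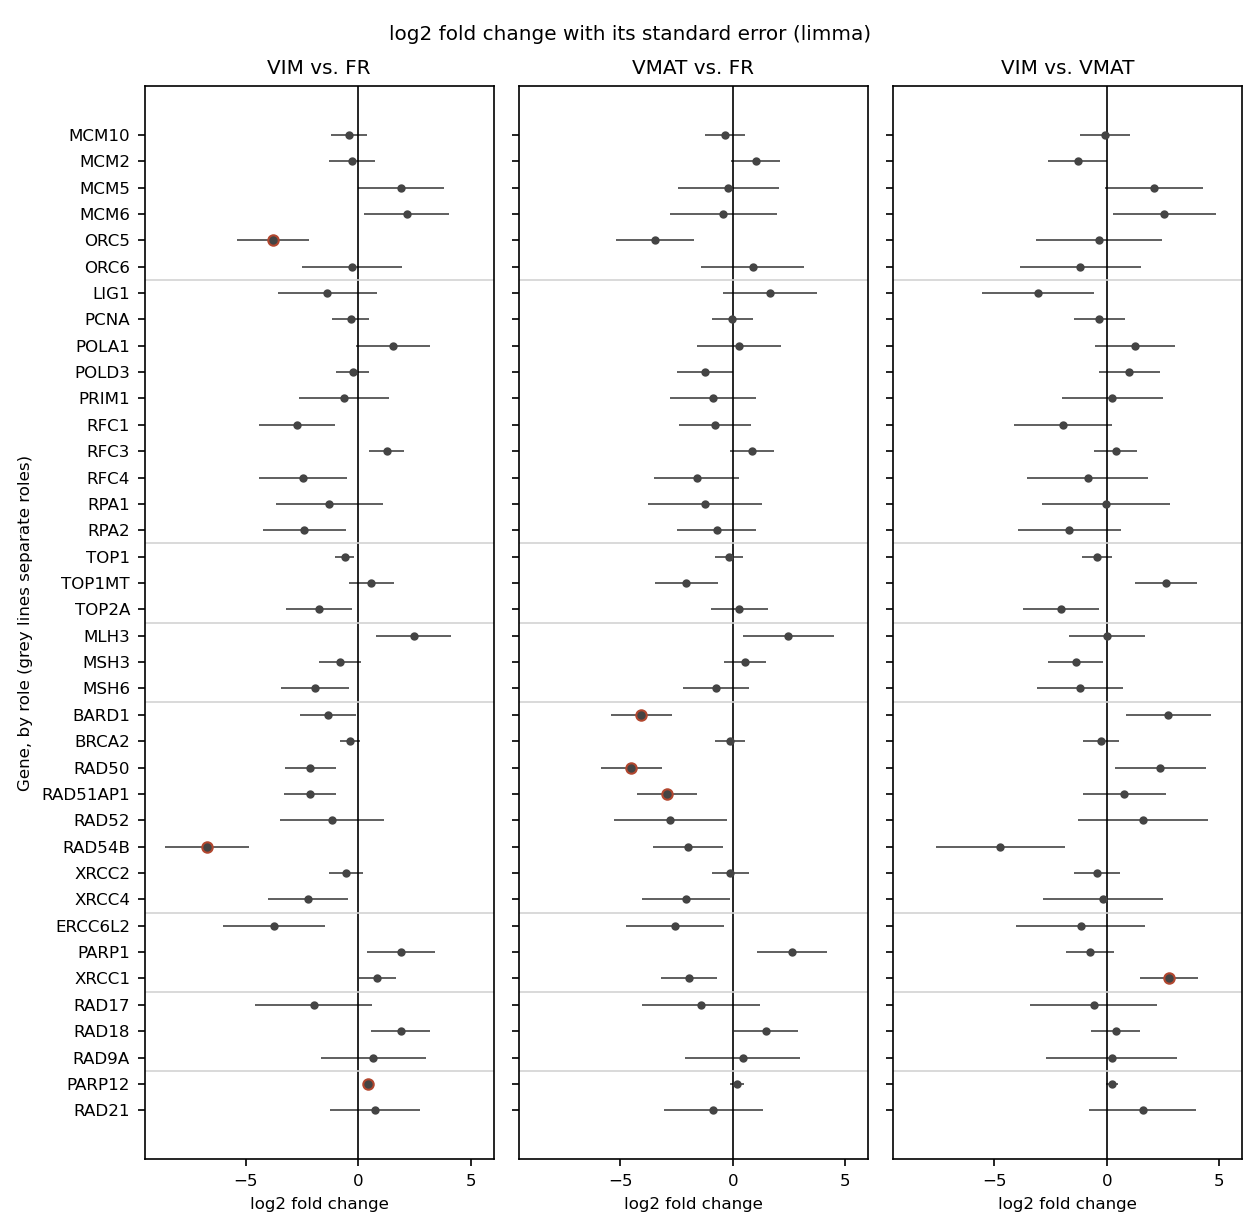
Log2 fold change (horizontal axis) of 38 of the 40 members (vertical axis, by role) with its limma standard error (bars) in the 3 comparisons, where red rings mark an unadjusted limma p under 0.05. All 8 members of double-strand break repair lie below 0 against FR in VIM and in VMAT. The bars of 18, 25 and 29 of the 38 drawn members cross 0 in the left, middle and right panel.

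The precision behind these values was low. The median standard error of a member's log2 fold change was 1.55 in VIM vs. FR, 1.56 for VMAT vs. FR and 1.90 for VIM vs. VMAT, and PARP12 had the smallest, 0.18. A log2 fold change of 1 or more in either direction was reached by 23, 19 and 19 members in the 3 comparisons, with none of them passing adjustment by limma.

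A list of 48 other replication and repair genes was also looked up, of which 39 could be matched and all were tested. In VIM vs. FR 20 of them were below 0 (median -0.01), for VMAT vs. FR 21 (median -0.12) and for VIM vs. VMAT 20 (median -0.13), and limma called none. CDT1, which loads the MCM helicase to license origins, was the gene of this list lower in both vitrified groups at an unadjusted limma p under 0.05. Its counts were 7.98, 22.8, 0 and 3.91 in VIM, 12.4, 23.9 and 1.18 in VMAT and 35.6, 700.0, 246, 424 and 410.2 in FR. All vitrified pools lay below all fresh pools. CDT1 was 1 of 39 (2.56%) to lie so, beside 0.639% of all genes in VIM vs. FR and 1.23% for VMAT vs. FR. At that p 1.66% and 1.22% of all genes were lower. DESeq2 called 1 of the 39 lower in each comparison, CDT1, beside 4.56% and 2.12% of all genes. CDT1 had a log2 fold change of -5.49 in VIM vs. FR (SE 1.85, limma adjusted p = 0.902, DESeq2 adjusted p = 0.00197). In VMAT vs. FR it was -4.83 (SE 1.88, limma adjusted p = 0.95, DESeq2 adjusted p = 0.0159).

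The others of the list with an unadjusted limma p under 0.05 were higher in the first group of their comparison on the mean of log2 values. Each was 1 of 39 (2.56%) in its comparison. Of all genes, 2.12% were higher at that p in VIM vs. FR (REV1), 2.41% in VMAT vs. FR (CDC7) and 0.97% in VIM vs. VMAT (BLM). REV1, a polymerase that copies past damaged bases, was 4311 ± 1032 in VIM and 2314 ± 846 in FR. All its VIM samples lay above all FR samples (0.952% of all genes). The log2 fold change of REV1 was 0.96 (SE 0.45, limma adjusted p = 0.902). CDC7, a kinase that fires licensed origins, was 893, 103 and 697 in VMAT and 66.8, 2.29, 1.68, 2.52 and 36.5 in FR. CDC7 had a log2 fold change of 5.40 (SE 2.17, limma adjusted p = 0.95, DESeq2 adjusted p = 0.0441). DESeq2 called 1 of the 39 higher there, CDC7, beside 2.16% of all genes. BLM, a helicase that undoes recombination intermediates, was 622, 554, 224 and 639 in VIM and 2082, 1.38 and 0 in VMAT, a log2 fold change of 4.79 (SE 2.03, limma adjusted p = 0.967). The mean counts of BLM ran the other way, 509.9 ± 194 in VIM and 694 ± 1202 in VMAT, and it was near 0 in VMAT replicates 2 and 3 and highest of all samples in VMAT replicate 1.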

How the data were processed

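Gene expression was measured by 3′ RNA-seq with unique molecular identifiers in 12 pools of horse oocytes (4 VIM, 3 VMAT and 5 FR). Of 5 pools per group, the authors kept 4 VIM, 4 VMAT and 5 FR after RNA quality control. They trimmed the reads with Trim Galore, mapped them to EquCab3.0 with STAR, handled the identifiers with UMI-tools and counted reads per gene with RSEM. They then left out 1 more VMAT sample for low RNA quality and few reads, so pools were lost from the vitrified groups only. The deposited values are a signal: counts that the authors divided by a DESeq2 size factor per sample. Within a tolerance of 1e-06, 100.0% of the values were multiples of 1 step per sample, which gave whole reads for edgeR and DESeq2. The libraries held 1636620 to 12166950 reads on genes, and the floor of 3 reads covers counting error only.

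Names came from the study's supplementary lists, of which only identifier and name were used. Fold changes and p-values in them were not used. Of the names, 58 were paired through shortened entries of the second list, which met 0 conflicts over 6200 such pairs. MLH3, MCM6, POLA1 and RFC3 were named only in that list. The members, the roles and the other gene lists were chosen with earlier results of these data known. No genome annotation was used, so overlapping genes and close paralogs were not checked.

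Each comparison used its own samples. A gene was kept if its normalised count was above 0 in 4 samples (VIM vs. FR) or 3 samples (the other comparisons) or more. Log2 values with a pseudocount of 1 were tested with limma 3.58.1 (R 4.3.3, lmFit and trended eBayes), and p-values were adjusted by Benjamini-Hochberg over all genes. DE meant an adjusted p up to 0.05 with a log2 fold change of 1 or more in either direction. The alternatives were edgeR 4.0.16 (quasi-likelihood test), DESeq2 1.42.0, other pseudocounts (0.5 and 10), filters, scalings and fits, and leaving out each sample. Leave-one-out fits of edgeR and DESeq2, ratios of reads without 1 library and the thinned reads were added after seeing the data. DESeq2 gave no adjusted p for 2 members in VIM vs. FR and 8 in VIM vs. VMAT. All 40 members enter the counts and medians, and 2 are not reported here by name or drawn by row. Standard errors are limma's. Values in every sample are given for RAD54B, RAD50, BARD1 and, per comparison, the 5 members with the smallest limma p, and members called by edgeR or DESeq2 are named. Other members shown in every sample were chosen after their values were seen. The scripts were tested on simulated data with less spread than the real counts, so that test does not measure power or false calls here. Replicate numbers were not treated as pairs: same-numbered samples deviated with correlations of -0.03 to 0.01. No 2 libraries of the same group were alike within sampling noise. Tables used pandas 2.3.3 and numpy 2.4.6 under Python 3.11.15, and figures matplotlib 3.10.9.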

Additional observations from a re-analysis of the deposited data

Results flagged for a closer look

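In 3 of the 20 groups of 4 or 5 samples examined for the named members, 1 pool stood apart from the others by Dixon's 95% criterion on log2 values, and chance gives about 1 in 20. All 3 were in VIM, and VMAT, with 3 samples, was not examined. The members were picked from the same data, so the rate of 1 in 20 need not hold for them. BARD1 was 4.89 in VIM replicate 4, against 1039 to 2018 in the other 3 samples. RAD51AP1 was 9.78 in VIM replicate 2, against 343 to 700 in the others, and only just met the criterion. LIG1 was 265 in VIM replicate 1, against 4.89 to 6.52 in the others.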

How the results depend on the processing

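Limma and edgeR called 0 members in each comparison under every alternative run with them. DESeq2 called 2 members lower in VIM vs. FR (5.0%, beside 4.56% of all genes) and 1 lower in VIM vs. VMAT (2.5%, beside 2.19%). Without 1 sample, DESeq2 called 1 to 5 members in VIM vs. FR, 0 to 3 in VMAT vs. FR and 0 to 3 in VIM vs. VMAT. RAD54B was called in VIM vs. FR in 9 of 9 such fits and ORC5 in all but the fit without FR replicate 1. Without VIM replicate 1 ERCC6L2, RAD17 and RFC4 were added, without VIM replicate 2 MSH6 and RPA2, and without VIM replicate 4 RFC1. In VMAT vs. FR, BARD1, ORC5 and RAD50 were called without VMAT replicate 2, and RAD52 without FR replicate 2 or 3. In VIM vs. VMAT, 0 were called without VMAT replicate 3, BARD1 and MCM6 were added without VMAT replicate 2, and LIG1 without VIM replicate 1. These DESeq2 and edgeR fits without 1 sample were chosen after seeing the data, and the cause of their differences was not tested. The share of all genes called was not counted in them, so the added calls describe single genes only.

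The members' median log2 fold change was -0.76 to -0.22 in VIM vs. FR, -0.48 to -0.18 in VMAT vs. FR and -0.27 to 0.21 in VIM vs. VMAT when 1 sample was left out of limma. Another scaling moved the median of all genes by over 0.1 in 2 comparisons. In VIM vs. VMAT it was -0.19 with equal column totals (members -0.13) and 0.02 with quantile normalization (members -0.07), and in VMAT vs. FR it was -0.10 with quantile normalization (members -0.18). BARD1 in VIM vs. FR turned from below to above 0 under edgeR (0.15) and DESeq2 (0.23). Without 1 sample it lay between -2.19 and 0.62 under limma, -0.54 and 0.56 under edgeR, and -0.30 and 0.64 under DESeq2. PARP1 in VMAT vs. FR turned from above to below 0 under edgeR (-0.20), and without 1 sample it lay between -0.52 and 0.86 under edgeR, -0.65 and 1.16 under DESeq2, and 1.39 and 3.73 under limma. Direction was followed under every alternative only for the members that the naming rule picked in a comparison, and the others of these kept it. Between limma and edgeR the sign differed for 7, 8 and 6 of all 40 members in the order of the comparisons above, and between limma and DESeq2 for 7 in each, PRIM1, POLD3 and TOP1 among them, and the cause was not tested.

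The count of members high in all 12 samples was 15 at a threshold of 10 and 9 at 100. With a replicate block the members' medians were -0.43, -0.34 and 0.21 in the 3 comparisons and 0 members were called. The numbers did not pair the samples (own number best for 1 of 4, 0 of 3 and 0 of 3 pairs). Naming members from a reference table could not be run, because the table given holds no identifiers of the kind in the data.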
